A study of Mus musculus with 72 samples.

Results

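Collagens are the main structural proteins of the matrix between heart cells. The genes described here are the collagen chain genes on the Clariom S Mouse array, an expression array with 1 probe set for nearly every gene. They were found by their symbol, Col followed by the number of the collagen type, the letter a and the number of the chain. Of 19494 genes measured, 42 were collagen chains, with 1 probe set each. By class, 11 were fibrillar collagens, 6 type IV chains of basement membranes, 2 multiplexins, 6 type VI chains, 3 network-forming collagens, 8 FACIT collagens, 4 transmembrane collagens and 2 other collagens. The FACIT chain Col12a1 and the anchoring fibril chain Col7a1 were not analysed here.

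A collagen molecule is a trimer of chains wound into a triple helix. Prolyl and lysyl residues are hydroxylated in the endoplasmic reticulum, and lysyl oxidases crosslink the secreted molecules. In heart muscle, fibroblasts make most of the fibrillar types I and III, which bundle muscle fibres and bear tension, while type IV chains form the sheet-like network of the basement membranes around cardiomyocytes and capillaries. FACIT collagens (fibril-associated collagens with interrupted triple helices) sit on the surface of fibrils, type VI chains build beaded microfibrils between the basement membrane and the interstitium, and multiplexins link the basement membrane to the matrix around it. An excess of fibrillar collagen is the hallmark of cardiac fibrosis, a known late change after irradiation of the chest.

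Whole-heart RNA came from 72 female CB6F1/Hsd mice, 100 to 120 days old when obtained and killed 16 months after the exposure. The exposed groups received a single whole-body dose of 137Cs gamma rays (137Cs-IR; 40, 80, 120 or 160 cGy), of 260 MeV per nucleon silicon ions with a linear energy transfer of about 70 keV per micrometre (14Si-IR; 4, 8, 16 or 32 cGy), or of 1000 MeV per nucleon titanium ions with about 100 keV per micrometre (22Ti-IR; 3, 6.5, 13 or 26 cGy), and each radiation type had a group of sham-treated mice of its own, held in the same kind of box without irradiation. The 15 groups held 5 hearts each, except the 160 cGy 137Cs-IR, 6.5 cGy 22Ti-IR and 14Si sham groups, which held 4. No transgene or other agent was involved, and each heart came from a separate animal of a cohort that had been kept for a tumour study, the hearts being taken from mice without tumours.

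The arrays were processed in 2 batches of 43 and 29 arrays, as the labels give them. All 4 hearts of the 14Si sham group lay in batch 2 and all 4 of the 160 cGy 137Cs-IR group in batch 1, whereas the other groups spanned both. The median log2 signal of the gene probe sets ranged from 4.17 to 6.35 between arrays as deposited, so all values below are log2 signals after quantile normalization over the gene probe sets, and a difference of 1 is a doubling. Along the first principal component, which held 18.4% of the variance, replicate 4 of 160 cGy 137Cs-IR (14.99) and replicate 3 of 6.5 cGy 22Ti-IR (20.4) lay in the range of batch 2 (4.10 to 26.6) although both were labelled batch 1, whose other arrays ranged from -22.1 to -4.18. All 8 ventricular cardiomyocyte markers exceeded the 90th percentile of the negative control probe sets on at least 36 arrays, and their mean ranged from 11.89 to 12.03 over the 6.5 cGy 22Ti-IR and 22Ti sham hearts, as heart tissue requires. In whole hearts, fewer cells of a type and less RNA per cell cannot be told apart.

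Few collagen genes stood clear of the array's background. The array carries 6546 negative control probe sets, and a gene was read as exceeding them where its deposited signal was above their 90th percentile on the same array. Col4a2, a chain of the widespread type IV trimer, exceeded it on 63 of 72 arrays, and Col3a1, the only chain of type III collagen, on 62 arrays. These were the only 2 of 42 collagen genes (4.76%) to do so on at least 36 arrays, against 15.7% of all genes. Next came the type VI chain Col6a2 on 31 arrays, Col1a2 of type I collagen on 11, Col4a1 on 4, the multiplexin Col15a1 on 2, and Col1a1 and Col6a1 on 1 array each. The remaining 34 exceeded it on no array, and none of the 42 did so on all 72. With the median of the negative controls as the bar, 35 of 42 (83.3%) lay above it on all 72 arrays, against 60.6% of all genes. Below that median lay Col24a1, a minor fibrillar chain, and Col10a1, the network-forming collagen of growth plate cartilage, on every array, while Col17a1, a hemidesmosome collagen of skin, was above it on 2 arrays and the type VI chain Col6a5 on 5. The cartilage chains Col2a1 (67 arrays) and Col11a1 (71 arrays) and Col26a1 (71 arrays) just missed it. Most collagen values below are thus between the median and the 90th percentile of the negative controls.

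**Figure D1:**
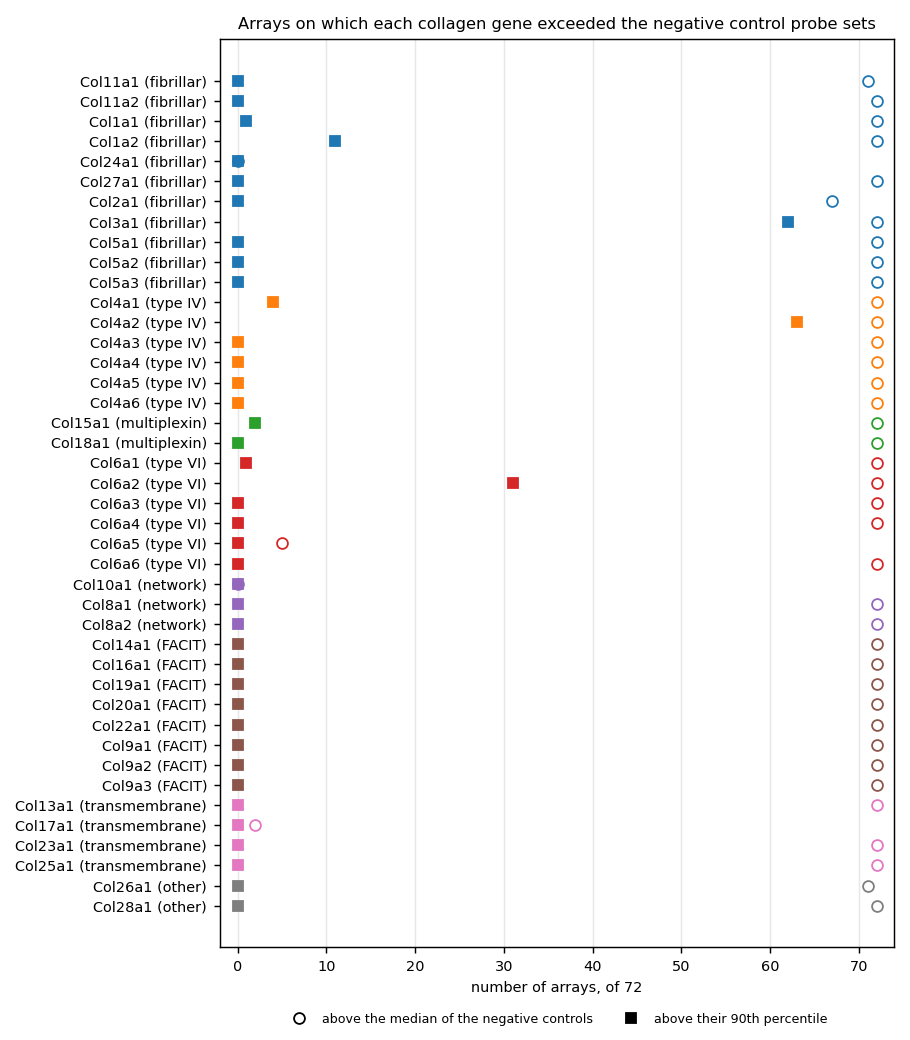
Each row is a collagen chain gene, coloured by class, and the horizontal axis counts the arrays, of 72, on which its deposited signal exceeded the median (open circles) or the 90th percentile (filled squares) of the 6546 negative control probe sets. Only Col4a2 (63 arrays) and Col3a1 (62 arrays) passed the 90th percentile on more than 36 arrays, while 35 genes passed the median on all 72.

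Each dose was then compared with its own sham group in 1 limma fit for each radiation, in which the batch was a term, and a gene was called where its Benjamini-Hochberg adjusted p over all 19494 genes was under 0.25, the threshold of the study's methods. The 4 doses of a type share their sham hearts, so their results are not independent. Among the 12 comparisons, collagen genes were called in 2. At 6.5 cGy 22Ti-IR, 13 of 42 collagen genes (31.0%) fell and none rose, where 5.53% of all genes were called in either direction and 2.82% were called lower. At 120 cGy 137Cs-IR, Col5a3 alone was called (lower), with 0.682% of all genes called. No collagen gene passed an adjusted p of 0.05 in any of the 12.

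**Figure D2:**
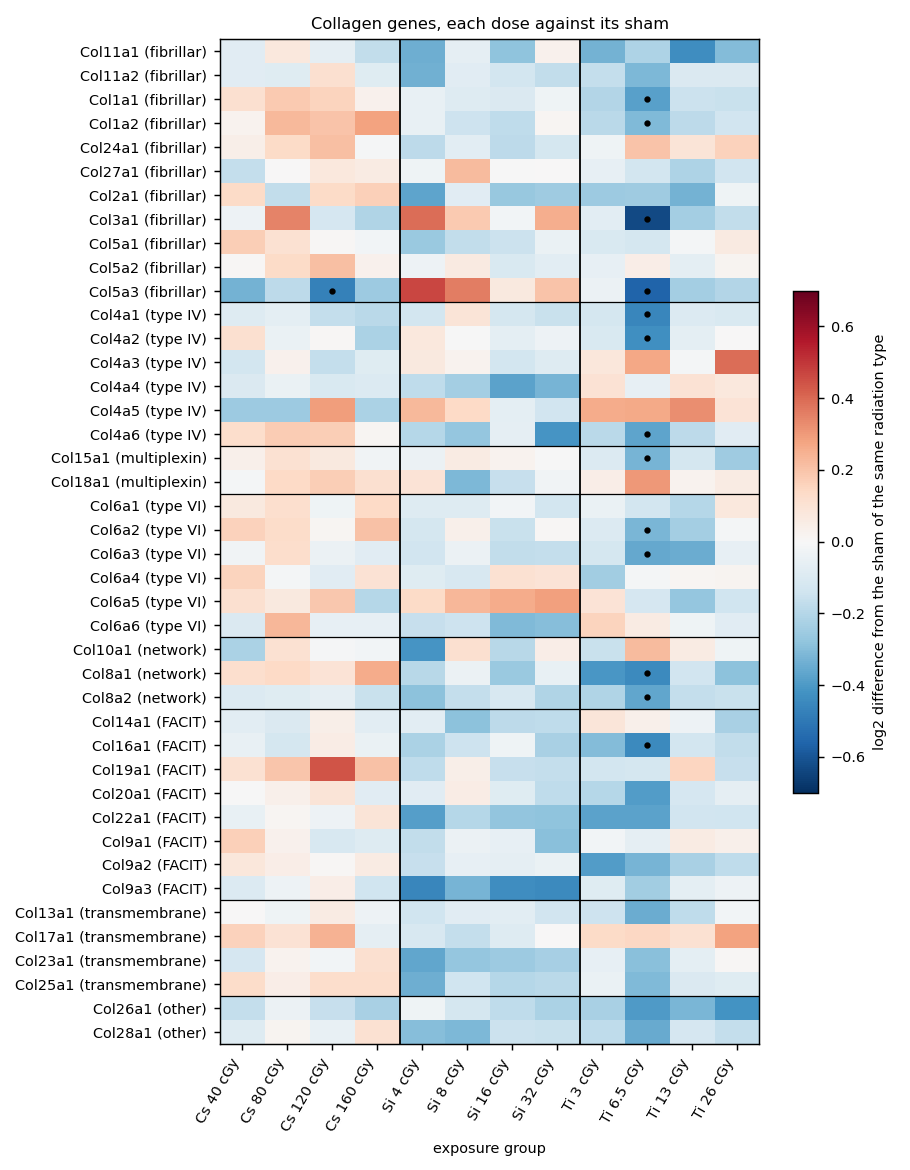
Rows are the 42 collagen genes grouped by class, columns are the 12 exposure groups, and the colour is the fitted log2 difference from the matching sham hearts with the batch as a term. Black dots mark adjusted p under 0.25; 13 lie in the 6.5 cGy 22Ti-IR column, all lower, and 1 (Col5a3, lower) in the 120 cGy 137Cs-IR column. With the values as deposited instead of normalized, the collagen median of the 6.5 cGy 22Ti-IR column changes sign, to 0.07.

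At 6.5 cGy 22Ti-IR the fall reached chains of 6 of the 8 classes. It took in type I and type III collagen and Col5a3 among fibrillar chains, Col4a1, Col4a2 and Col4a6 of type IV, both type VIII chains, Col6a2 and Col6a3 of type VI, Col15a1 and Col16a1. The fitted differences of the 13 ranged from -0.31 (Col1a2) to -0.63 (Col3a1), which is 0.808 to 0.645 of the sham level. Over all 42 genes, 33 lay below zero with a median difference of -0.30, beside 51.3% of all genes below zero and a median over all genes of -0.01. An unadjusted p under 0.05 was reached by 19 collagen genes, all lower, beside 14.0% of all genes.

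Among the fibrillar collagens, 4 of 11 fell, and the class median was -0.25. Col3a1, which makes up the thinner fibrils of the heart interstitium, had log2 levels of 7.64, 7.53, 7.02 and 8.13 in the hearts given 6.5 cGy 22Ti-IR, against 8.41, 8.34, 8.07, 8.33 and 7.86 in the 22Ti sham hearts. Its difference was -0.63 (SE 0.19, limma adjusted p = 0.160), replicate 3 being the lowest and replicate 4 lying within the sham range. Col1a1, the chain present as a pair in type I collagen, had 7.25, 6.88, 6.79 and 7.31 in the hearts given 6.5 cGy 22Ti-IR, against 7.80, 7.35, 7.57, 7.25 and 7.10 in the 22Ti sham hearts. It differed by -0.38 (SE 0.13, adjusted p = 0.212). The groups overlapped, since exposed replicates 1 and 4 lay above the lowest sham hearts. Its partner chain Col1a2 had 7.41, 7.41, 7.15 and 7.41 in the hearts given 6.5 cGy 22Ti-IR, against 7.83, 7.81, 7.73, 7.56 and 7.24 in the 22Ti sham hearts. That difference was -0.31 (SE 0.11, adjusted p = 0.242), with 3 exposed hearts near 7.41 and replicate 3 below every sham heart. Col5a3, a chain of type V collagen with a narrow tissue range, had 5.16, 4.58, 5.08 and 5.29 in the hearts given 6.5 cGy 22Ti-IR, against 5.70, 5.52, 5.71, 5.45 and 5.41 in the 22Ti sham hearts. All 4 exposed hearts lay below all 5 sham hearts, and the difference was -0.56 (SE 0.14, adjusted p = 0.115). The main type V chains, which set the diameter of type I fibrils, were not called: Col5a1 differed by -0.12 (SE 0.14, adjusted p = 0.738) and Col5a2 by 0.05 (SE 0.14, adjusted p = 0.909). The remaining 5 fibrillar chains, found mainly in cartilage or at low levels elsewhere, lay between -0.31 (Col11a2, adjusted p = 0.302) and 0.20 (Col24a1, below the negative control median on every array).

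Of the type IV chains, 3 of 6 fell. Col4a2 had log2 levels of 7.66, 7.31, 7.40 and 7.74 in the hearts given 6.5 cGy 22Ti-IR, against 8.04, 7.90, 8.21, 7.80 and 7.84 in the 22Ti sham hearts. The groups did not overlap, and the difference was -0.43 (SE 0.11, adjusted p = 0.113). Col4a1, which enters the same trimer, had 7.24, 6.87, 6.99 and 7.17 in the hearts given 6.5 cGy 22Ti-IR, against 7.67, 7.14, 7.74, 7.61 and 7.40 in the 22Ti sham hearts. It differed by -0.46 (SE 0.12, adjusted p = 0.132), with exposed replicates 1 and 4 above the lowest sham heart. Col4a6, a chain of smooth muscle basement membranes that lay near the background, had 4.59, 4.62, 4.70 and 4.87 in the hearts given 6.5 cGy 22Ti-IR, against 5.13, 5.06, 5.39, 4.75 and 4.87 in the 22Ti sham hearts. Its difference was -0.37 (SE 0.11, adjusted p = 0.162), and only replicate 4 lay within the sham range. The other chains, known from the basement membranes of kidney, lung and inner ear, were not called: Col4a3 differed by 0.27 (SE 0.19, adjusted p = 0.533), Col4a4 by -0.06 (SE 0.13, adjusted p = 0.878) and Col4a5 by 0.27 (SE 0.14, adjusted p = 0.393). The 6 genes lie head to head in 3 pairs on the GRCm38.p6 assembly. Col4a1 (chr8:11198423-11312889) and Col4a2 (chr8:11312805-11449287) overlap by 85 bases at their starts, Col4a3 (chr1:82586921-82722059) and Col4a4 (chr1:82448419-82587034) by 114 bases, and Col4a5 (chrX:141475370-141689236) and Col4a6 (chrX:141165403-141474095) are 1274 bases apart. The first pair fell together. In the third, Col4a6 fell while Col4a5 had a value above zero that did not pass the test.

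In the multiplexins, whose ends release endostatin and a related fragment, 1 of 2 fell. Col15a1 had 7.05, 6.71, 6.49 and 7.18 in the hearts given 6.5 cGy 22Ti-IR, against 7.27, 7.12, 7.34, 7.17 and 7.10 in the 22Ti sham hearts. The difference was -0.33 (SE 0.12, adjusted p = 0.244), with replicate 4 inside the sham range. Col18a1, the source of endostatin, differed by 0.30 (SE 0.26, adjusted p = 0.613). Of the type VI chains, 2 of 6 fell. Col6a3, the longest chain of the microfibril, had 6.86, 6.59, 6.56 and 6.95 in the hearts given 6.5 cGy 22Ti-IR, against 7.11, 7.02, 7.19, 7.09 and 7.10 in the 22Ti sham hearts. The groups did not overlap, the 5 sham hearts lay close together, and the difference was -0.36 (SE 0.11, adjusted p = 0.174). Col6a2 had 7.41, 7.44, 7.08 and 7.66 in the hearts given 6.5 cGy 22Ti-IR, against 7.98, 7.70, 7.70, 7.71 and 7.48 in the 22Ti sham hearts. It differed by -0.32 (SE 0.12, adjusted p = 0.229), with replicate 4 inside the sham range. Col6a1, the other chain of the main type VI trimer, differed by -0.13 (SE 0.12, adjusted p = 0.643).

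Both type VIII chains, which form hexagonal lattices under endothelium, fell. Col8a1 had 6.52, 5.89, 6.003 and 6.34 in the hearts given 6.5 cGy 22Ti-IR, against 6.89, 6.64, 6.88, 6.14 and 6.33 in the 22Ti sham hearts, a difference of -0.45 (SE 0.16, adjusted p = 0.227). Col8a2 had 7.11, 6.89, 6.70 and 6.80 in the hearts given 6.5 cGy 22Ti-IR, against 7.58, 6.79, 7.54, 7.08 and 7.06 in the 22Ti sham hearts, a difference of -0.37 (SE 0.13, adjusted p = 0.235). In both, the groups overlapped. Among the FACIT collagens, 1 of 8 fell: Col16a1, which binds to fibrils and microfibrils, had 6.86, 6.74, 6.31 and 6.58 in the hearts given 6.5 cGy 22Ti-IR, against 7.18, 7.10, 7.38, 6.72 and 6.76 in the 22Ti sham hearts. Its difference was -0.44 (SE 0.14, adjusted p = 0.183), and exposed replicates 1 and 2 lay above the lowest sham heart. The class median of -0.29 was carried by genes that missed the threshold, such as Col20a1 at -0.39 (SE 0.16, adjusted p = 0.269) and the myotendinous junction chain Col22a1 at -0.37 (SE 0.17, adjusted p = 0.329). None of the 4 transmembrane collagens (median -0.30) and neither Col26a1 (-0.40, SE 0.16, adjusted p = 0.284) nor Col28a1 (-0.35, SE 0.14, adjusted p = 0.287) was called. Groups that did not overlap, lower after exposure, were found for Col4a2, Col5a3 and Col6a3 alone among the 42, beside 1.2% of all genes.

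**Figure D3:**
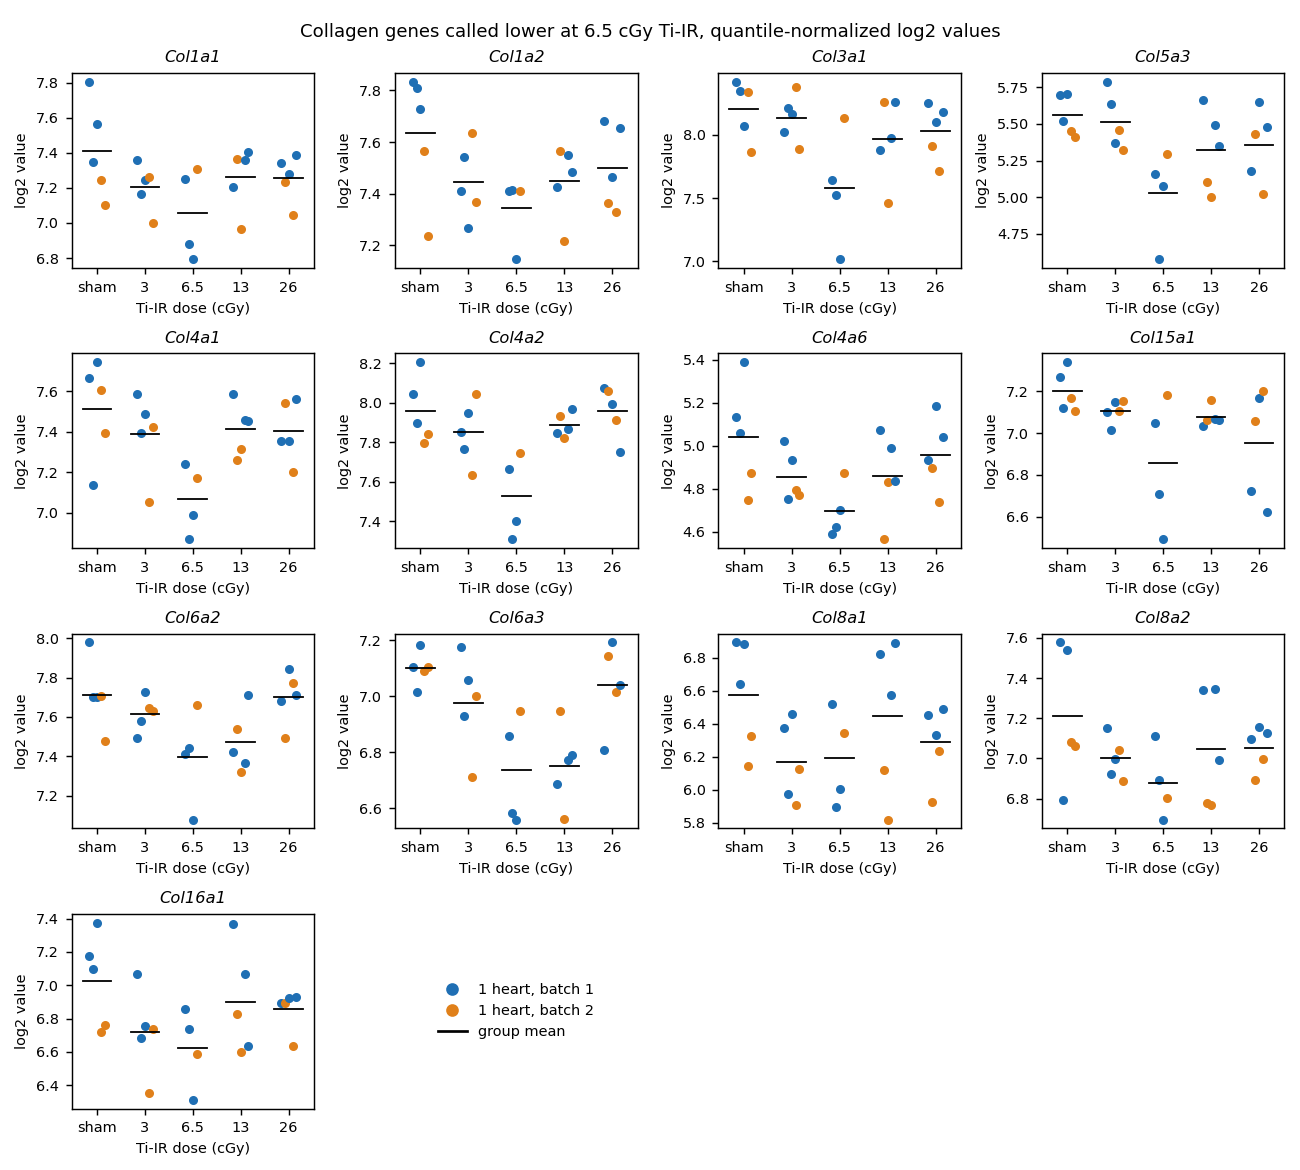
The 13 collagen genes called lower at 6.5 cGy 22Ti-IR, with the quantile-normalized log2 value of each 22Ti-IR heart (points, coloured by processing batch) and the group mean (line), by dose in cGy with the sham group at the low end. In Col4a2, Col5a3 and Col6a3 all 4 hearts at 6.5 cGy lie below all 5 sham hearts, and the means at 3, 13 and 26 cGy lie mostly between those of the sham and 6.5 cGy groups. As deposited, before normalization, 6 of the 13 have differences above zero at 6.5 cGy.

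The count at 6.5 cGy rested on a few hearts and on the scaling. It was 0 when exposed replicate 2, exposed replicate 3, sham replicate 1 or sham replicate 3 was left out, while the 13 genes stayed below zero in all 24 fits that leave out 1 of the 24 hearts. Within batch 1 alone (3 exposed against 3 sham hearts), 12 of the 13 were called. The exposed hearts there were replicates 1, 2 and 3, without replicate 4, the 1 heart of the group in batch 2. Replicate 3 is the array that lay with batch 2 on the first principal component. The share of all genes called in that fit was not counted. With the values as deposited none of the 13 was called lower and 6 had differences above zero, the median over all genes being shifted by 0.27 and that over the collagen genes by 0.07, so that the collagen median lay 0.20 below that of all genes.

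Exposed replicates 2 and 3 also stood apart in the hepatocyte markers. The mean log2 level of 5 hepatocyte markers (Alb, Apoa2, Ttr, Serpina1a and Fgb) was 4.90, 8.11, 6.55 and 4.92 in the 6.5 cGy hearts, against 4.86, 4.88, 5.21, 4.92 and 4.77 in the sham hearts, and 33 of all 72 hearts had a mean over 6. Serpina1a (1.11, SE 0.39, adjusted p = 0.217) and Fgb (0.69, SE 0.21, adjusted p = 0.179) were 2 of the 5 called, both higher, and all 5 stayed under the 90th percentile of the negative controls on most arrays. In alternatives chosen after the data had been seen, with that mean as a covariate or with both hearts left out, none of the 13 collagen genes was called, and all 13 remained below zero, at -0.23 to -0.45 with the covariate and at -0.09 to -0.31 without the 2 hearts. The level of GC-rich background probe sets over the array median was 0.762, 0.406, 1.14 and 0.917 in the exposed hearts, against 1.08, 0.804, 1.07, 0.972 and 0.927 in the sham hearts, and 4 of the 13 were called with it as a covariate, another alternative chosen after the data had been seen. The mean of 9 fibroblast markers was 8.75, 8.77, 8.50 and 8.61 in the exposed hearts, against 8.74, 8.78, 8.48, 8.57 and 8.47 in the sham hearts, with 0 of 9 called. The 5 atrial markers averaged 9.56, 11.5, 11.1 and 9.96 in the exposed hearts, against 11.1, 9.998, 7.10, 11.3 and 6.16 in the sham hearts. Whether the tissue taken with the heart, array quality or the batch of replicate 3 had a part in the collagen difference was not tested.

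The mean of the 35 collagen genes above the negative control median, each centred and with the batch removed, was -0.05, -0.26, -0.32 and 0.02 in the 6.5 cGy 22Ti-IR hearts (mean -0.15 ± 0.16, SD, n = 4), against 0.20, -0.02, 0.17, 0.03 and 0.02 in the 22Ti sham hearts (mean 0.08 ± 0.10, SD, n = 5). Replicates 2 and 3 were thus the low hearts, and replicates 1 and 4 lay close to the sham group. Replicate 3, labelled batch 1, lay in the range of batch 2 on the first principal component. Its value was adjusted by the label, and the collagen median was -0.11 in batch 2 against batch 1. The part of its batch in this low value was not tested. Counts with this array counted to batch 2 or left out are given in the closing section. The means of the other 13 groups ranged from -0.04 at 16 cGy 14Si-IR to 0.12 in the 14Si sham group.

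**Figure D4:**
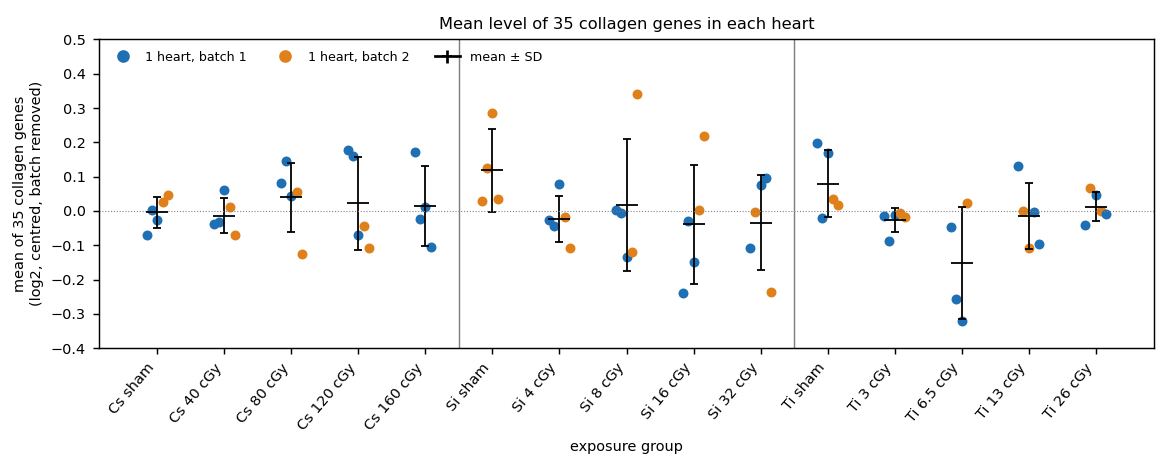
The vertical axis is the mean log2 level of 35 collagen genes in each heart after centring each gene and removing the batch difference, for the 15 groups; points are hearts coloured by batch and bars are the group mean ± SD. Replicates 2 and 3 at 6.5 cGy 22Ti-IR (-0.26 and -0.32) are the low points of that group, and the group means of the other exposures lie between -0.04 and 0.04.

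The doses on either side did not show the fall as calls. At 3 cGy 22Ti-IR, 34 of 42 collagen genes lay below zero with a median of -0.11 and 0 were called (0.0103% of all genes). At 13 cGy, 33 lay below zero with a median of -0.12 and 0 called (0.426% of all genes), the smallest collagen adjusted p being 0.275. At 26 cGy, 29 lay below zero with a median of -0.08 and 0 called (0% of all genes). All 4 doses were set against the same 5 sham hearts. Col3a1 averaged 8.20 in the sham hearts and 8.13, 7.58, 7.97 and 8.03 at 3, 6.5, 13 and 26 cGy, and Col4a2 averaged 7.96 in the sham hearts and 7.85, 7.53, 7.89 and 7.96 at those doses. Col6a3 was as low at 13 cGy (6.75 ± 0.14, SD, n = 5) as at 6.5 cGy (6.74 ± 0.19, SD, n = 4), with 7.10 ± 0.06 in the sham hearts. Set directly against the other doses, the 6.5 cGy group had 0 collagen genes called against 3 cGy (0.0462% of all genes), 13 cGy (0% of all genes) or 26 cGy (0.0205% of all genes). Medians were -0.13, -0.12 and -0.18, with 6, 5 and 9 collagen genes at an unadjusted p under 0.05. The percentages are shares called, and the share of all genes at that unadjusted p was not counted. With 0 collagen genes called, the fall was not shown to differ from the values at the neighbouring doses.

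Promoter sequences are shown for the called genes with a window that lies outside every annotated gene, their own included, as the stretch before the start of genes that fell together. RefSeq windows of GRCm38.p6 were found for 34 of the 42 collagen genes and for 12 of the 13 called genes, and 5 of those 12 had such a window. Each line gives the 250 bases before the annotated start, 5′ to 3′ on the gene's strand. Capitals mark matches, on either strand, to 4 motifs searched in every window. The first, a core promoter element for polymerase positioning, was spelled TATAAA. The second, bound by the factor NF-Y, was spelled CCAAT. The third, bound by Sp1 and its relatives, was spelled GGGCGG. The last, an E-box, was spelled CACGTG. Adjoining or overlapping matches run together.
Col1a2 promoter (chr6:4505368-4505617, plus strand): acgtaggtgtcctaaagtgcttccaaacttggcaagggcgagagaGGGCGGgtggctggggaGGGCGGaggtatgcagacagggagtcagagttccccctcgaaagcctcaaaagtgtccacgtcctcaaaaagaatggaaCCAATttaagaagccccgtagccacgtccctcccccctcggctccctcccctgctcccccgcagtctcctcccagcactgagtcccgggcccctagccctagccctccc
Col3a1 promoter (chr1:45311288-45311537, plus strand): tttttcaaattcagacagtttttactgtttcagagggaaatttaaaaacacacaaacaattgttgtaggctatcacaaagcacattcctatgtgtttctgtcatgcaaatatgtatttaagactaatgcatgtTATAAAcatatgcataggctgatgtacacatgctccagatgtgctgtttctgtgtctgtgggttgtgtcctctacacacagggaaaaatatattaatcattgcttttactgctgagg
Col6a2 promoter (chr10:76623631-76623880, minus strand): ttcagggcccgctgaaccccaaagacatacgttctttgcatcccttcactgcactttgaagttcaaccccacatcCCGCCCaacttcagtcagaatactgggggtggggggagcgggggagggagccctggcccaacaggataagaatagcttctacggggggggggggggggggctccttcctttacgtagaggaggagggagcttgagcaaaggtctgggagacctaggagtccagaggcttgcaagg
Col8a1 promoter (chr16:57754738-57754987, minus strand): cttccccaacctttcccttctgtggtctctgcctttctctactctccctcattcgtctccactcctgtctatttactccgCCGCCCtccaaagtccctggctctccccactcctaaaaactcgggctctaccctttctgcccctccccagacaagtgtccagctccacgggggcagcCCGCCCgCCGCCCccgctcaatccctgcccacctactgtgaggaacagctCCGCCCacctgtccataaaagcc
Col8a2 promoter (chr4:126286544-126286793, plus strand): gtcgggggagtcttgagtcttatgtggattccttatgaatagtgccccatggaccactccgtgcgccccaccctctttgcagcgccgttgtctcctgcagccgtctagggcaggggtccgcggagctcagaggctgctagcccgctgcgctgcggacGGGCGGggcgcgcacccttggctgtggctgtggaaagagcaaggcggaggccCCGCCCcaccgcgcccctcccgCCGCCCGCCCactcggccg

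The type I chain Col1a2 held GGGCGG 205 and 188 bases before its start and CCAAT at 109 bases, and Col3a1 held TATAAA at 117 bases and no GC box in an AT-rich window (35.2% G and C). The type VIII chains Col8a1 and Col8a2 had 4 GGGCGG matches each, in windows of 60.8% and 70.0% G and C, while Col6a2 had 1 match at 175 bases. The table held 37 windows for the 34 collagen genes, 3 genes having 2 each. Over the 13 windows of called genes, GGGCGG was found in 9, CCAAT in 5, TATAAA in 1 and CACGTG in 0. Over the 24 windows of other collagen genes the counts were 12, 7, 4 and 0. Of all 32851 windows in the table, 32.7% held GGGCGG, 33.8% CCAAT, 12.4% TATAAA and 6.02% CACGTG. The median G and C content was 62.0% in the windows of called genes, 57.8% in those of other collagen genes and 52.4% over all windows. These are matches of letters in a window, not sites shown to be bound.

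After 137Cs-IR 1 collagen gene was called, at 1 of the 4 doses. At 40 cGy, 0 of 42 were called (0.221% of all genes), 22 lay below zero and the median was -0.01. At 80 cGy, 0 were called (0.482% of all genes), 14 lay below zero and the median was 0.04. At 120 cGy, 17 lay below zero, the median was 0.03 and Col5a3 fell. It had 5.50, 5.10, 5.23, 4.80 and 4.93 in the 120 cGy hearts, against 5.72, 5.67, 5.55, 5.40 and 5.59 in the 137Cs sham hearts. Its difference was -0.48 (SE 0.13, limma adjusted p = 0.244), and the groups overlapped by replicate 1 of the exposed hearts. The call was lost in 18 of the 24 fits that leave out 1 heart, namely each sham heart, replicates 1, 2, 3 or 5 at 40 cGy, replicates 1, 3, 4 or 5 at 80 cGy, replicates 2, 3, 4 or 5 at 120 cGy, or replicate 2 at 160 cGy. Over all 24 its adjusted p ranged from 0.109 to 0.544. At 160 cGy, where 6.88% of all genes were called, 0 collagen genes were, 25 lay below zero and the median was -0.03. Col1a2 had the smallest adjusted p there, at 0.28 higher (SE 0.12, adjusted p = 0.309), while Col1a1 and Col3a1 averaged 7.27 ± 0.13 and 7.95 ± 0.18 at 160 cGy, against 7.19 ± 0.07 and 8.03 ± 0.14 in the 137Cs sham hearts (SD, n = 4 and 5). These means carry no batch term, and the 160 cGy hearts were all labelled batch 1. The batch 1 sham hearts had 7.13, 7.16 and 7.17 in Col1a1 and 8.01, 8.13 and 8.17 in Col3a1.

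Between 137Cs doses, 2 collagen genes were called. Col3a1 was lower at 160 cGy (7.79, 8.12, 7.81 and 8.10) than at 80 cGy (8.39, 8.52, 8.42, 8.26 and 8.29), by -0.56 (SE 0.14, adjusted p = 0.159), where 1.98% of all genes were called. Col4a5 was lower at 160 cGy (4.89, 5.18, 5.18 and 5.32) than at 120 cGy (5.82, 5.70, 5.60, 5.07 and 5.53), by -0.51 (SE 0.14, adjusted p = 0.0937), with 7.12% of all genes called, and the groups overlapped through 1 heart at 120 cGy. The 160 cGy hearts were all labelled batch 1. In a straight-line fit on dose, 0 collagen genes were called for 137Cs-IR (1.54% of all genes), 14Si-IR (0% of all genes) or 22Ti-IR (0% of all genes). In a spline fit, Col4a5 was called for 137Cs-IR (adjusted p = 0.189; 4.09% of all genes), Col6a3 for 22Ti-IR (adjusted p = 0.248; 1.06% of all genes) and none for 14Si-IR (0.267% of all genes).

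After 14Si-IR no collagen gene was called at any dose, and the values leaned below zero throughout. At 4 cGy, 35 of 42 lay below zero (median -0.14, 0.159% of all genes called), at 8 cGy 29 (median -0.08, 0.128%), at 16 cGy 38 (median -0.13, 0.0205%) and at 32 cGy 32 (median -0.13, 0.0513%). The smallest adjusted p over the collagen genes and the 4 doses was 0.671, at 4 cGy. All 4 doses share the 4 sham hearts of batch 2, which had the highest mean of the 35 collagen genes (0.12). Without a batch term, Col3a1 averaged 7.68 ± 0.30 in the 14Si sham hearts and 8.29 ± 0.32, 8.08 ± 0.33, 7.88 ± 0.18 and 8.15 ± 0.35 at 4, 8, 16 and 32 cGy (SD, n = 4 in the sham group and 5 at each dose). These means are not alike in batch, since each dose spanned both. Within batch 2, Col3a1 was 7.42, 7.90, 7.97 and 7.43 in the sham hearts. It was 7.93 and 8.16 at 4 cGy, 7.57 and 8.07 at 8 cGy, 7.88 and 7.63 at 16 cGy, and 8.07 and 7.77 at 32 cGy in that batch. Against the lean below zero, its fitted difference at 4 cGy was 0.39 (SE 0.17, limma adjusted p = 0.730). Col5a3 likewise differed by 0.47 at 4 cGy (SE 0.21, adjusted p = 0.724).

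Among the 15 groups together, an F test called 4 of 42 collagen genes, where 6.06% of all genes were called. They were Col3a1 (F = 2.91, adjusted p = 0.115), the type VI chain Col6a6 (F = 2.60, adjusted p = 0.173), Col5a3 (F = 2.35, adjusted p = 0.225) and Col6a3 (F = 2.28, adjusted p = 0.243). Over the 12 dose comparisons, Col3a1 ranged from -0.63 at 6.5 cGy 22Ti-IR to 0.39 at 4 cGy 14Si-IR, Col1a1 from -0.38 at 6.5 cGy 22Ti-IR to 0.18 at 80 cGy 137Cs-IR, and Col1a2 from -0.31 at 6.5 cGy 22Ti-IR to 0.28 at 160 cGy 137Cs-IR. Col4a1 was below zero in 11 of the 12 and Col4a2 in 8. Col8a2 and Col26a1 lay below zero in all 12, at -0.06 to -0.37 and at -0.03 to -0.42. The doses of a type share their sham hearts, so the 12 are not independent. Both genes were picked out here after the values were seen. By class, the fibrillar median ranged from -0.25 at 6.5 cGy 22Ti-IR to 0.11 at 120 cGy 137Cs-IR and the type IV median from -0.21 at 6.5 cGy to 0.04 at 26 cGy 22Ti-IR. The type VI median was lowest at 13 cGy 22Ti-IR (-0.22), and the multiplexin median at 8 cGy 14Si-IR (-0.13). The FACIT, transmembrane, network-forming and remaining classes were each lowest at 6.5 cGy 22Ti-IR, at -0.29, -0.30, -0.37 and -0.37.

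Between sham groups, 2 of 42 collagen genes (4.76%) were called in each of 2 comparisons, below the shares of all genes called there (5.68% and 6.35%). In the 137Cs sham hearts, the FACIT chain Col19a1 was lower (4.56, 5.11, 5.08, 4.82 and 5.14) than in the 14Si sham hearts (5.20, 5.46, 5.33 and 5.59), by -0.48 (SE 0.17, adjusted p = 0.204). The neuronal transmembrane collagen Col25a1 was also lower in the 137Cs sham hearts (5.51, 5.72, 5.98, 5.76 and 5.75) than in the 14Si sham hearts (5.93, 6.17, 6.47 and 6.18), by -0.50 (SE 0.18, adjusted p = 0.207). As deposited, both differences turned to values above zero. In the 14Si sham hearts, Col6a6 was higher (6.06, 5.43, 5.76 and 5.87) than in the 22Ti sham hearts (5.63, 5.46, 5.16, 5.67 and 5.21), by 0.41 (SE 0.14, adjusted p = 0.175). Col17a1, which exceeded the negative control median on only 2 arrays, was called there too (0.41, SE 0.17, adjusted p = 0.247). Between the 137Cs and 22Ti sham hearts 0 collagen genes were called (0.113% of all genes). The 14Si sham hearts lay in batch 2 alone, so these differences lean on the batch difference seen in the other groups.

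Between the processing batches, 28 of 42 collagen genes (66.7%) were called, a share close to the 65.2% of all genes. Of these, 26 were lower and 2 higher in batch 2 than in batch 1, and the collagen median was -0.11 beside 0.00 over all genes. Col9a3, a cartilage FACIT chain (-0.41), and Col23a1, a transmembrane collagen (-0.37, SE 0.05, adjusted p = 5.65e-09), were lower in batch 2, as were Col8a1 (-0.29), Col4a4 (-0.28) and Col16a1 (-0.27). Col5a1 (0.24) and Col6a1 (0.21) were higher. Type I, III and VIII chains and Col4a1 were among those lower in batch 2.

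Chains that share a trimer varied together from heart to heart in some cases only. After removal of the batch and group means, 13 pairs were compared over 72 hearts with permutation tests of 100000 draws, and 9 had an adjusted p under 0.05. Col4a1 and Col4a2 had the highest correlation (Pearson r = 0.72, Spearman rho = 0.61, permutation adjusted p = 3.25e-05 and 6.5e-05). Each adjusted p of 3.25e-05 or 6.5e-05 among the pairs came from the smallest p these draws can give, 1e-05. The r of Col4a1 and Col4a2 was 0.57 within batch 1 and 0.81 within batch 2. It was 0.64 without the 2 hearts farthest from the median, and 0.241% of all genes had a higher r with Col4a1. Col1a1 and Col3a1 followed (r = 0.62, rho = 0.57, permutation adjusted p = 3.25e-05 and 6.5e-05, within batches 0.56 and 0.68, without 2 hearts 0.59), with 0.0616% of all genes higher. Col1a1 and Col1a2, of the same molecule, had r = 0.47 (rho = 0.43, permutation adjusted p = 4.33e-05 and 0.000442, within batches 0.57 and 0.36, without 2 hearts 0.50), with 1.62% of all genes higher. The type VIII chains Col8a1 and Col8a2 had r = 0.42 (rho = 0.42, permutation adjusted p = 0.000569 and 0.000542), at 0.23 within batch 1, 0.66 within batch 2 and 0.42 without 2 hearts, with 4.09% of all genes higher. The type VI chains Col6a1 and Col6a3 had r = 0.46 (rho = 0.40, permutation adjusted p = 9.29e-05 and 0.00132, within batches 0.35 and 0.59, without 2 hearts 0.36), with 0.569% of all genes higher. Col6a1 and Col6a2 had r = 0.26 (rho = 0.31, permutation adjusted p = 0.0416 and 0.0113, within batches 0.16 and 0.40, without 2 hearts 0.23), but 10.7% of all genes had a higher r with Col6a1, and this r lay below the 95th percentile over all genes (0.33).

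Of the other 7 pairs, 3 had an adjusted p under 0.05 by Pearson r. Col5a1 and Col5a2 of type V collagen had r = 0.15 (rho = 0.01, permutation adjusted p = 0.233 and 0.938, within batches -0.01 and 0.36, without 2 hearts 0.13), with 13.9% of all genes higher. The head-to-head neighbours Col4a3 and Col4a4 had r = 0.07 (rho = 0.07, permutation adjusted p = 0.563 and 0.633, within batches 0.32 and -0.24, without 2 hearts 0.09), with 32.0% of all genes higher. Col4a5 and Col4a6 had r = -0.15 (rho = -0.06, permutation adjusted p = 0.233 and 0.653, within batches -0.13 and -0.19, without 2 hearts -0.18), with 85.5% of all genes higher. Both multiplexins gave r = 0.14 (rho = 0.27, permutation adjusted p = 0.272 and 0.0265, within batches 0.15 and 0.13, without 2 hearts 0.24), with 31.1% of all genes higher than that r. The cartilage pairs Col9a1 and Col9a2 (r = 0.52, rho = 0.37, permutation adjusted p = 3.25e-05 and 0.00234, within batches 0.52 and 0.53, without 2 hearts 0.42, 2.59% of all genes higher) and Col11a1 and Col11a2 (r = 0.49, rho = 0.45, permutation adjusted p = 4.33e-05 and 0.000442, within batches 0.35 and 0.71, without 2 hearts 0.47, 0.0821% higher) varied together although none of these chains exceeded the 90th percentile of the negative controls on any array. Chains of separate networks, Col1a1 and Col4a1, gave r = 0.50 (rho = 0.43, permutation adjusted p = 3.25e-05 and 0.000442, within batches 0.42 and 0.58, without 2 hearts 0.40), with 1.06% of all genes higher. All hearts share 1 array type and its normalization, and values as deposited, before normalization, gave r of 0.64 to 0.90 for all 13 pairs.

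**Figure D5:**
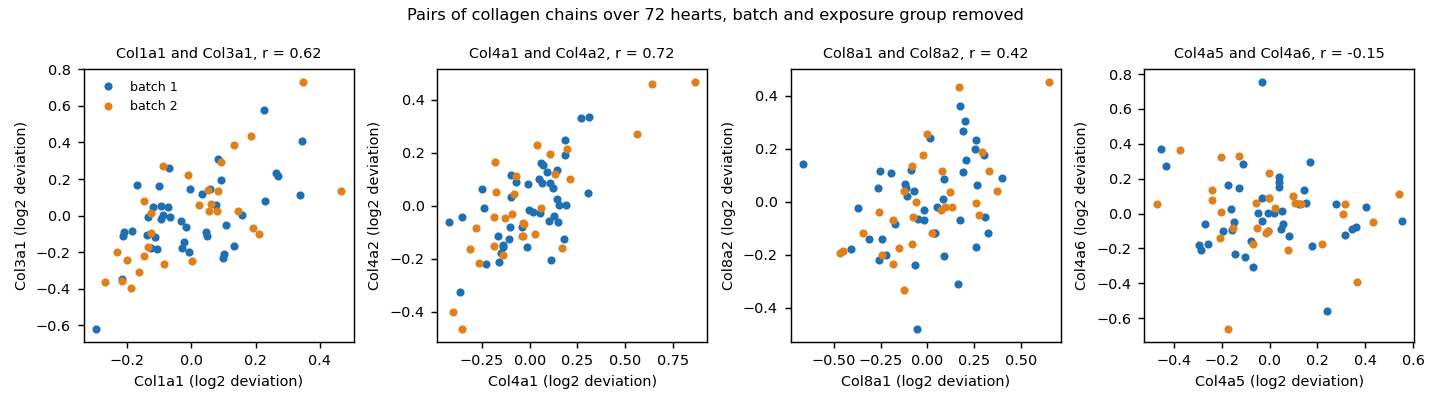
Each panel plots 1 pair of collagen chains, both axes as log2 deviation from the batch and group means, with 1 point for each of 72 hearts coloured by batch. The points of Col4a1 and Col4a2 lie along a rising line (r = 0.72), as do those of Col1a1 and Col3a1 (r = 0.62) and, more loosely, Col8a1 and Col8a2 (r = 0.42), while those of Col4a5 and Col4a6 form a cloud without a rise (r = -0.15).

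Outside the collagens, the genes most like the mean of Col1a1, Col1a2 and Col3a1 over the 72 hearts, by Pearson r, were S100a11 (0.62), Cd34 (0.57), Ptgis (0.57), Aebp1 (0.56), Igfbp4 (0.55), Fcrls (0.54), Tgfbr2 (0.54) and Sbk2 (0.53). Those most like the mean of Col4a1 and Col4a2 were Lrrc47 (0.80), Tchp (0.78), Tbcb (0.78), Cox4i1 (0.77), Nudt9 (0.77), Tsfm (0.77), Usp16 (0.77) and Rmc1 (0.77). These are descriptions with batch and group removed, and none of the 16 belongs to a pathway or marker list used here. No laminin or nidogen, the partners of type IV collagen, was among the second 8.

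Genes that make, crosslink and break down collagen held both lower and higher calls at 6.5 cGy 22Ti-IR. There, 5.53% of all genes were called and 2.82% were called lower. Of 15 synthesis enzymes and chaperones measured, 1 fell, P4ha1, a catalytic subunit of prolyl 4-hydroxylase (-0.40, SE 0.11, limma adjusted p = 0.137), and 11 of the 15 lay below zero (median -0.05). Of 10 processing and crosslinking enzymes, 1 fell, the lysyl oxidase family member Loxl4 (-0.50, SE 0.14, adjusted p = 0.137), and 4 of the 10 lay below zero (median 0.03). Of 13 degradation genes, 2 rose and 1 fell (median 0.12): Timp3, a matrix-bound inhibitor of metalloproteinases (0.52, SE 0.14, adjusted p = 0.137), Ctsk, the collagen-cleaving cathepsin K (0.38, SE 0.14, adjusted p = 0.241), and Mmp14, a membrane-bound collagenase (-0.39, SE 0.14, adjusted p = 0.222). None of 7 collagen receptors was called (median 0.21, none below zero) and none of 10 basement membrane partners (median -0.04). Of 15 other matrix genes, elastin (Eln) fell (-0.37, SE 0.13, adjusted p = 0.218), with a median of 0.01. Among markers of other cells, 2 of 8 mural cell genes rose, Cnn1 (1.31, SE 0.34, adjusted p = 0.119) and Myh11 (0.55, SE 0.19, adjusted p = 0.216), and 1 of 2 Schwann cell genes rose, Cdh19 (1.14, SE 0.29, adjusted p = 0.111). Of 6 cartilage and valve genes, 1 rose, Comp (0.61, SE 0.21, adjusted p = 0.216), and 3 lay below zero without being called (list median -0.01): Acan (-0.27, SE 0.11, adjusted p = 0.284), Matn1 (-0.27, SE 0.12, adjusted p = 0.320) and Hapln1 (-0.09, adjusted p = 0.893). None of 7 endothelial, 8 ventricular, 5 atrial, 5 macrophage, 4 adipocyte and 5 mesothelial markers was called, the median of the atrial list being 1.24 above the sham hearts. The part of these cell types in the collagen values was not tested.

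The same lists also held calls at other doses. At 160 cGy 137Cs-IR, where 6.88% of all genes were called, 3 of 15 other matrix genes rose (list median 0.17): biglycan (Bgn, 0.55, SE 0.12, adjusted p = 0.0545), fibulin 2 (Fbln2, 0.53, SE 0.13, adjusted p = 0.0832) and fibronectin (Fn1, 0.50, SE 0.19, adjusted p = 0.237). Pcolce, which enhances cleavage of procollagen ends (0.41, SE 0.12, adjusted p = 0.128), and the crosslinking enzyme Loxl3 (0.35, SE 0.11, adjusted p = 0.165) also rose, being 2 of 10 processing and crosslinking enzymes (median -0.01). Of 13 degradation genes, 1 rose, Timp3 (0.78, SE 0.22, adjusted p = 0.114), and 1 fell, the fibroblast protease gene Fap (-0.58, SE 0.22, adjusted p = 0.245), with a list median of -0.02. Of 10 basement membrane partners, the laminin chain Lamb1 fell (-0.26, SE 0.08, adjusted p = 0.146; median 0.05), as did the tight junction gene Cldn5 of 7 endothelial markers (-0.56, SE 0.20, adjusted p = 0.216; median 0.00) and the light chain Myl3 of 8 ventricular markers (-0.30, SE 0.08, adjusted p = 0.0887; median -0.05). Lamb1 also fell at 120 cGy 137Cs-IR (-0.34, SE 0.07, adjusted p = 0.0714; list median 0.07), where 0.682% of all genes were called. It rose at 8 cGy 14Si-IR (0.47, SE 0.11, adjusted p = 0.168), where 8 of the 10 partners lay below zero and 0.128% of all genes were called. At 4 cGy 14Si-IR (0.159% of all genes called), Mmp14 rose among 13 degradation genes (0.63, SE 0.13, adjusted p = 0.120; median 0.06) and Cldn5 among 7 endothelial markers (0.78, SE 0.19, adjusted p = 0.211; median 0.09). At 40 cGy 137Cs-IR (0.221% of all genes called), Cd248 rose among 9 fibroblast markers (0.53, SE 0.11, adjusted p = 0.0943; median 0.03). At 13 cGy 22Ti-IR (0.426% of all genes called), Emcn rose among 7 endothelial markers (0.42, SE 0.11, adjusted p = 0.227; median 0.14) and Matn1 fell among 6 cartilage and valve markers (-0.44, SE 0.11, adjusted p = 0.219; median -0.06).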

How the data were processed

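Whole-heart RNA of 72 mice was hybridised to Clariom S Mouse arrays, 1 array per heart, in 2 processing batches. The deposited values are log2 signals with 1 column per array, and 0 of the 72 columns were left out. They are described as made with RMA (background correction, quantile normalization and summarization of probes per probe set). Their array medians ranged from 4.17 to 6.35, so a common quantile normalization is not seen in them. Because array medians differed, the 22142 gene (TC) probe sets were quantile normalized here, apart from 6546 negative control and 441 other control probe sets. A symbol was given for 19527 TC probe sets and none for 2615, and the probe set of highest mean was kept for the 33 genes with more than 1, leaving 19494 genes, all found in the RefSeq gene table.

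Groups and replicates came from the labels. limma 3.58.1 (R 4.3.3; lmFit and eBayes) was fitted to all groups of a radiation type with batch as a term, and to all 15 groups for the F test, the sham groups and the batch difference. Benjamini-Hochberg adjustment ran over all genes of a comparison, with calls at 0.25, and splines on dose had 3 degrees of freedom. Replicates are hearts of separate mice, 4 or 5 per group, a number that limits the precision. Correlations used Python 3.11.15 with numpy 2.4.6, scipy 1.17.1 and pandas 2.3.3, and figures matplotlib 3.10.9. The scripts for calls were tested on simulated data.

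Named were the collagen genes called against sham, in the F test or between sham groups, the main chains of heart muscle whatever their result, the called members of the pathway and marker lists (at most 6 a list comparison by p) and the 8 genes most like either pair of reference chains. Genes called between doses or in the spline fits, and some that missed the threshold, were named after their values were seen. Members, classes and lists were chosen with earlier results of these data known. The lists held synthesis enzymes, processing and crosslinking enzymes, degradation genes, receptors, interstitial matrix genes, basement membrane partners, and markers of fibroblasts, endothelium, mural cells, ventricle, atrium, macrophages, adipocytes, hepatocytes, cartilage and valve, Schwann cells and mesothelium; Dcn and Lum stand in both the fibroblast and the interstitial list. Promoter windows came from RefSeq (GRCm38.p6). Alternatives covered the batch term, the samples fitted, the scaling, the filter, the eBayes options, the threshold, the control percentile and each heart left out in turn.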

Additional observations from a re-analysis of the deposited data

Results flagged for a closer look

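Over 17 named collagen genes and 255 groups of 4 or 5 hearts, 11 groups (4.31%) held 1 heart that stood far from the others by Dixon's criterion, which chance alone passes in about 1 of 20 groups. All values are quantile-normalized log2 levels. After 22Ti-IR, Col1a2 was 7.146 in replicate 3 at 6.5 cGy, against 7.409 to 7.414 in the other hearts of that group. Col15a1 was 7.158 in replicate 3 at 13 cGy, with the others between 7.033 and 7.067. At 26 cGy, Col16a1 was 6.637 in replicate 4 (others 6.891 to 6.932) and Col5a2 was 4.945 in replicate 3 (others 5.369 to 5.471).

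After 14Si-IR, Col4a1 reached 8.37 in replicate 5 at 8 cGy, with the others between 7.19 and 7.487. After 137Cs-IR, Col6a2 was 7.863 in replicate 3 at 40 cGy (others 7.614 to 7.665). At 80 cGy, Col15a1 was 7.404 in replicate 2 (others 7.165 to 7.221), Col6a1 was 6.968 in replicate 3 (others 7.285 to 7.343), and replicate 5 was low in both Col4a2 (7.412, others 7.881 to 8.068) and Col6a2 (7.536, others 7.657 to 7.705). At 160 cGy, Col1a2 was 7.277 in replicate 2, with the others between 7.691 and 7.745.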

How the results depend on the processing

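Of 183 counts of called collagen genes recomputed under other settings, single left-out hearts aside, 142 stayed within 1.5 times the reported count. A reported count of 0 that stayed 0 was included in the 142. The shares of all genes called under these settings were not counted. These counts therefore cannot be read as particular to collagen genes. For 6.5 cGy 22Ti-IR (13 reported), the count was 0 at an adjusted p of 0.05, without the batch term, with only the 2 groups compared, or with the 2 arrays that lay with the other batch left out; 6 with batch as a random block and 6 with all 72 arrays in the fit; 7 with the 2 arrays counted to batch 2; 5 with medians aligned; and 4, all higher, as deposited. Of the alternatives chosen after seeing the data, the hepatocyte mean as a covariate gave 0, the GC-rich background level 4, and leaving out replicates 2 and 3 gave 0. Leaving out 1 heart gave 0 to 19. For 120 cGy 137Cs-IR (1 reported), the count was 0 at 0.05, without the batch term, with batch as a random block, with all 72 arrays, with only the 2 groups, within batch 1 or batch 2, as deposited and with medians aligned, and 0 to 2 with 1 heart left out. The cause was not tested in any of these.

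Other comparisons with 0 reported gained calls: at 4 cGy 14Si-IR 3 and at 32 cGy 14Si-IR 1 with all 72 arrays; at 13 cGy 22Ti-IR 1 with only the 2 groups, and 2 each with the 2 arrays counted to batch 2, left out, or under the filter of log2 5 in 4 arrays; at 160 cGy 137Cs-IR 1 with eBayes trend and robust and 1 under that filter; and, as deposited, 30 at 32 cGy 14Si-IR and 1 at 3 cGy 22Ti-IR. Leaving out 1 heart gave 0 to 1 at 160 cGy 137Cs-IR and 0 to 2 at 13 cGy 22Ti-IR. Between 137Cs and 14Si sham hearts (2 reported) the count was 0 with only the sham arrays, 39 as deposited and 0 with medians aligned (0 to 3 with 1 heart left out), and between 14Si and 22Ti sham hearts (2 reported) 0 in all 3 (0 to 2 with 1 heart left out). Between 137Cs and 22Ti sham hearts, leaving out 1 heart gave 0 to 1. The F test (4 reported) gave 40 as deposited and 0 with medians aligned. As deposited, array medians ranged from 4.17 to 6.35, and the share of all genes called there was not counted. The number of collagen genes over the negative controls on at least 36 arrays (2) was 38 with their median and 0 with their 95th percentile as the bar.

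As deposited, differences at 6.5 cGy 22Ti-IR changed sign for Col15a1 (0.064), Col1a1 (0.027), Col1a2 (0.099), Col6a2 (0.082), Col6a3 (0.022), Col8a2 (0.029), Col5a1 (0.11) and Col6a1 (0.26), and between 137Cs and 14Si sham hearts for Col19a1 (0.15) and Col25a1 (0.13), the median over all genes being shifted by 0.27 and 0.62. Col5a2 turned to -0.094 within batch 1, -0.054 without 22Ti sham replicate 5 and -0.02 without 6.5 cGy replicate 4, and Col6a1 to 0.051 without replicates 2 and 3. Correlations changed sign for Col5a1 and Col5a2 within batch 1 (-0.0064), Col4a3 and Col4a4 within batch 2 (-0.24), and Col4a5 and Col4a6 as deposited (0.64).

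Replicate numbers did not pair the samples: over 54 same-numbered pairs r ranged from -0.22 to 0.24, and in no comparison was every r over 0.1. With a replicate block, 12 of the 13 genes at 6.5 cGy 22Ti-IR were called, and no other reported count moved by over 1.5 times. Signals near the negative controls and 4 or 5 hearts per group limit what could be detected.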
